A study of Homo sapiens with 12 samples.

Results

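Peaks of SOX17 and SOX2 binding that lay more than 500 kb from the transcription start site (TSS) to which the authors assigned them were taken from a pair of chromatin immunoprecipitation sequencing (ChIP-seq) peak lists. They were chosen by the absolute value of the deposited distance to the TSS, and no measured value of binding entered the choice. They numbered 821 of 35302 peaks. The SOX17 list gave 366 of its 17507 peaks (2.09%, 95% Wilson interval 1.89 to 2.31%), and the SOX2 list gave 455 of its 17795 (2.56%, 2.34 to 2.8%). SOX17 was precipitated from TCam-2, a seminoma-like human germ cell tumour line, and SOX2 from 2102EP, an embryonal carcinoma-like line. The other groups were 2% input chromatin of TCam-2 and of 2102EP, and each of the 4 groups had 3 libraries, 12 in all. Each immunoprecipitation took 200 µg of chromatin and 5 µg of antibody, and single-end reads of 75 bp were sequenced. Each factor was studied in 1 cell line, so a difference between the lists is one between experiments that differ in both the antibody and the line.

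The authors merged the libraries of each factor into an annotated list. Neither list gives values for a single library or read totals, so depth is unknown, no value carries a replicate error and no test between conditions could be made. Intervals below treat peaks as independent and cover counting over peaks only, not the spread between cultures. The 4426 regions in both lists and the copies of a repeat are not independent. The lists measure binding and not expression, so the markers of the lines were not checked.

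SOX17 and SOX2 are transcription factors whose HMG domain binds a short AT-rich site in the minor groove of DNA. In pluripotent cells SOX2 pairs with the POU factor OCT4 (POU5F1) on a composite site in which the SOX and OCT parts are separated by 1 base, the canonical spacing. SOX17 directs endoderm and human primordial germ cells, and with OCT4 it prefers a compressed site with no base between the parts. Much of the DNA far from genes consists of remnants of transposons. Among these, long terminal repeat (LTR) elements are relics of endogenous retroviruses that carry their own regulatory sequence, and several of their families are active in pluripotent and germ cells.

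The sequences printed here are members of highest score, shared regions of high mean percentile, and members that carry the composite site more frequent in their list, since the comparisons of sites and repeats turn on them. All are given on the plus strand of hg38, each named by the nearest TSS of the deposited annotation. In the first set capitals mark a SOX site (CATTGT or CTTTGT) or an OCT site (ATGCAAAT or ATGCTAAT) on either strand.
MIR4318 (SOX17, chr18:38427420-38427530): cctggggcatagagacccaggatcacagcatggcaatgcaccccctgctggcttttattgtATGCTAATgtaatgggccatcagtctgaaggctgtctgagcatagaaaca
LINC02114 (SOX17, chr5:4199526-4199646): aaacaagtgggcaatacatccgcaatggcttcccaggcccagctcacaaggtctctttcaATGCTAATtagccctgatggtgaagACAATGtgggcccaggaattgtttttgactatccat
MIR620 (SOX2, chr12:115508050-115508174): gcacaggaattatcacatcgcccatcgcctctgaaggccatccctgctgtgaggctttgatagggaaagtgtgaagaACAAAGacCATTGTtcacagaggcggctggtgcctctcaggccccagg
LINC01947 (SOX2, chr5:166088558-166088690): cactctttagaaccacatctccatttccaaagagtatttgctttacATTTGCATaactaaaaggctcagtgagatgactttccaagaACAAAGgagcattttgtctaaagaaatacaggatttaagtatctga
LINC00648 (SOX17, chr14:48586310-48586417): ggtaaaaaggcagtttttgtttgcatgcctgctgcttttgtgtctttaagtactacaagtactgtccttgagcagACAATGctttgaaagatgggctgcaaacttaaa

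In the second set capitals mark a whole composite site, in which the OCT part may differ from its letters at up to 1 position. The first has the compressed spacing of 0 bases and the others the canonical spacing of 1 base.
ADGRL3-AS1 (SOX17, chr4:62973255-62973368): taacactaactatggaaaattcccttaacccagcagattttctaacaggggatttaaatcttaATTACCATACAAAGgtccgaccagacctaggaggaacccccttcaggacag
DIAPH3-AS1 (SOX2, chr13:59448398-59448530): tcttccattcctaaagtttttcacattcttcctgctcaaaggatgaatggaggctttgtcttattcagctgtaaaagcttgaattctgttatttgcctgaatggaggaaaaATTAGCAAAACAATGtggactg
MIR548AG1 (SOX2, chr4:60404062-60404181): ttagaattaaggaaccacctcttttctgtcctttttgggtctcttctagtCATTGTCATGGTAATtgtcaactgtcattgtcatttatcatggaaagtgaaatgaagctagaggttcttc
TMTC2 (SOX2, chr12:83559824-83559932): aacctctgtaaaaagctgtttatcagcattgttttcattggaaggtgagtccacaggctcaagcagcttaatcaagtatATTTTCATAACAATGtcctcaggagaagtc

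The distant peaks were narrow, as were the others. Their median width was 125 bp for SOX17 (101 to 280 bp) and 127 bp for SOX2 (101 to 233 bp), against 123 and 127 bp in the rest of each list. The median distance from the assigned TSS was 661450 bp for SOX17 and 640542 bp for SOX2. Beyond 1 Mb lay 51 SOX17 and 40 SOX2 peaks. More lay downstream of the assigned TSS than upstream, 212 against 154 for SOX17 and 270 against 185 for SOX2. These sides were not counted in the rest of the lists, so the excess may not be particular to the distant peaks. In the deposited annotation 334 SOX17 members were intergenic (91.3% against 48.4% of the rest) and 32 intronic (8.74% against 44.8%). Of the SOX2 members 422 were intergenic (92.7% against 49.9%) and 33 intronic (7.25% against 44.4%). The SOX17 peak farthest from its TSS lay 2294731 bp downstream of EPHA3, which encodes an ephrin receptor. The farthest SOX2 peak lay 2563296 bp upstream of the olfactory receptor gene OR11H12, in a simple repeat, at a score percentile of 0.798.

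At the limit itself members and other peaks sat close together. The 3 SOX17 members nearest to the limit were assigned to DUSP26, VENTXP7 and CASC6 at −500670, −500738 and −501953 bp from the TSS, where minus is upstream, with scores of 18.67, 29.33 and 13.67. The 3 SOX17 peaks just within it were assigned to VRK2 and LINC02114, upstream, and to PARD3, downstream, with scores of 18.33, 20.67 and 20.67. The 3 nearest SOX2 members were assigned to LOC101929550, CHD6 and LOC105374972, with scores of 58.93, 13.63 and 58.47. Just within the limit, the SOX2 peaks assigned to KIF4B, LOC101928052 and THSD7B had scores of 17.87, 66.43 and 38.7.

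How far these peaks are from a gene depends on which genes are counted. In GENCODE 44, a fuller annotation on the same build, 278 SOX17 members (76.0%) and 339 SOX2 members (74.5%) lay more than 500 kb from any protein-coding TSS, with medians of 674812 and 669490 bp. When TSSs of every gene type were counted, only 1 SOX17 and 0 SOX2 members lay beyond 500 kb, and the medians were 56326 and 52093 bp. The nearest TSS of any type belonged to a long noncoding RNA for 149 SOX17 and 184 SOX2 members. It belonged to a pseudogene for 153 and 190, and to a protein-coding gene for 13 and 15. A coding transcript covered 33 SOX17 and 31 SOX2 members. "Gene desert" therefore applies to most of these peaks for protein-coding genes, and to almost none of them when noncoding RNAs and pseudogenes are counted.

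Both factors were sparse in the coding deserts of the genome. Of 2938 Mb of sequenced bases, 343 Mb (11.7%) lie more than 500 kb from a protein-coding TSS of GENCODE 44. They held 914 SOX17 peaks (5.22% of the list) at 2.67 peaks per Mb, against 6.39 per Mb in the rest of the genome, a ratio of 0.417. For SOX2 they held 1072 peaks (6.02%) at 3.13 per Mb, against 6.45 per Mb, a ratio of 0.485.

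More of the distant peaks than of the rest lay in repeats. In the SOX17 list 234 of 366 members (63.9%) lay in an annotated repeat, against 42.7% of the rest, a difference of 21.3 percentage points (95% Newcombe interval 16.2 to 26.1). In the SOX2 list it was 276 of 455 (60.7%), against 40.9%, a difference of 19.8 points (15.1 to 24.2). The difference was as large for LTR elements alone. They held 172 SOX17 members (47.0%) against 22.1% of the rest, and 226 SOX2 members (49.7%) against 24.9%. The LTR differences were 24.9 points (19.8 to 30.1) for SOX17 and 24.8 points (20.2 to 29.4) for SOX2. LINE elements, which spread without LTRs, held 12.0% of SOX17 members against 11.8% of the rest, and 7.69% of SOX2 members against 8.93%. SINE elements held 6 SOX17 members (1.64% against 3.25%) and 2 SOX2 members (0.44% against 2.61%), and only the SOX2 interval of the difference lay wholly below 0 (−2.58 to −1.0 points).

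The repeat share also differed between distances within the limit. Within 1 kb of a TSS repeats held 3.12% of SOX17 and 3.46% of SOX2 peaks. In the 3 classes from 10 to 250 kb the shares lay close together, at 44.7 to 46.2% for SOX17 and 40.8 to 44.2% for SOX2. Between 250 and 500 kb they were 50.7% and 49.6%. Between 500 and 1000 kb they held 62.2% of SOX17 peaks, and over 1000 kb 74.5% of 51. The SOX2 shares at these distances were 61.4% and 52.5% of 40, and the last interval (37.5 to 67.1%) spans the values of the neighbouring distances. Among intergenic peaks alone, a subset added after the data were seen, the LTR difference was smaller. LTR elements then held 48.2% of SOX17 members against 30.6% of the rest, a difference of 17.6 points (12.2 to 23.1), and 50.5% of SOX2 members against 34.1%, a difference of 16.3 points (11.5 to 21.2).

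**Figure D1:**
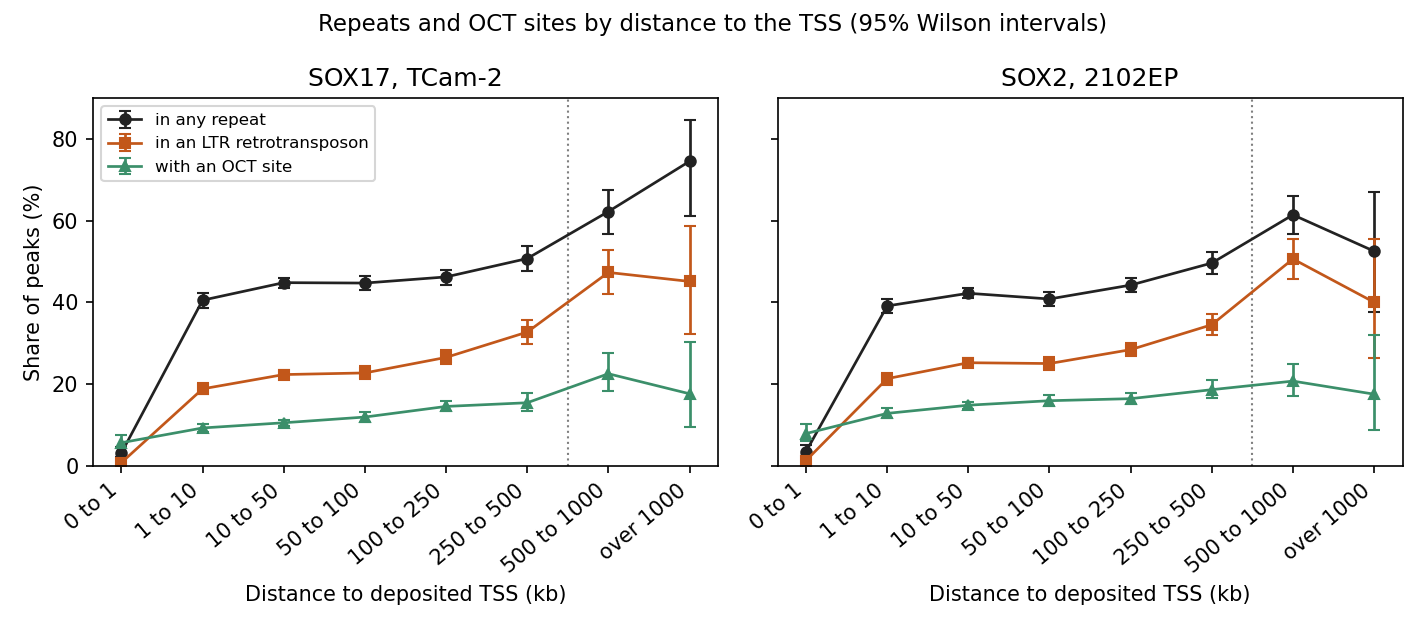
Share of peaks (%) in any repeat, in an LTR element and with an OCT site by distance to the deposited TSS (kb), for SOX17 in TCam-2 and SOX2 in 2102EP, with 95% Wilson intervals; the dotted line marks 500 kb. The LTR share was 32.7% of SOX17 and 34.5% of SOX2 peaks at 250 to 500 kb, and 47.3% and 50.6% at 500 to 1000 kb.

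The LTR families under the distant peaks differed between the experiments. ERVL-MaLR elements, old LTR transposons of the mammalian genome, held 74 SOX17 members (20.2%) against 6.59% of the other SOX17 peaks, and 48 SOX2 members (10.5%) against 4.62%. ERV1 elements, relics of gammaretrovirus-like viruses, held 63 SOX17 members (17.2%) against 8.79%, and 139 SOX2 members (30.5%) against 13.9%. SOX17 minus SOX2, the ERVL-MaLR share of members differed by 9.67 points (4.73 to 14.7; above the median score of each list 6.97 points, −0.0556 to 14.8) and the ERV1 share by −13.3 points (−19.0 to −7.5). The same differences among the rest of the lists were 1.97 points (1.48 to 2.45) and −5.07 points (−5.74 to −4.41). ERVL held 5.19% of SOX17 and 3.74% of SOX2 members, and ERVK, which includes the youngest elements, 3.28% and 3.08%. For these the intervals of the difference from the rest included 0.

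**Figure D2:**
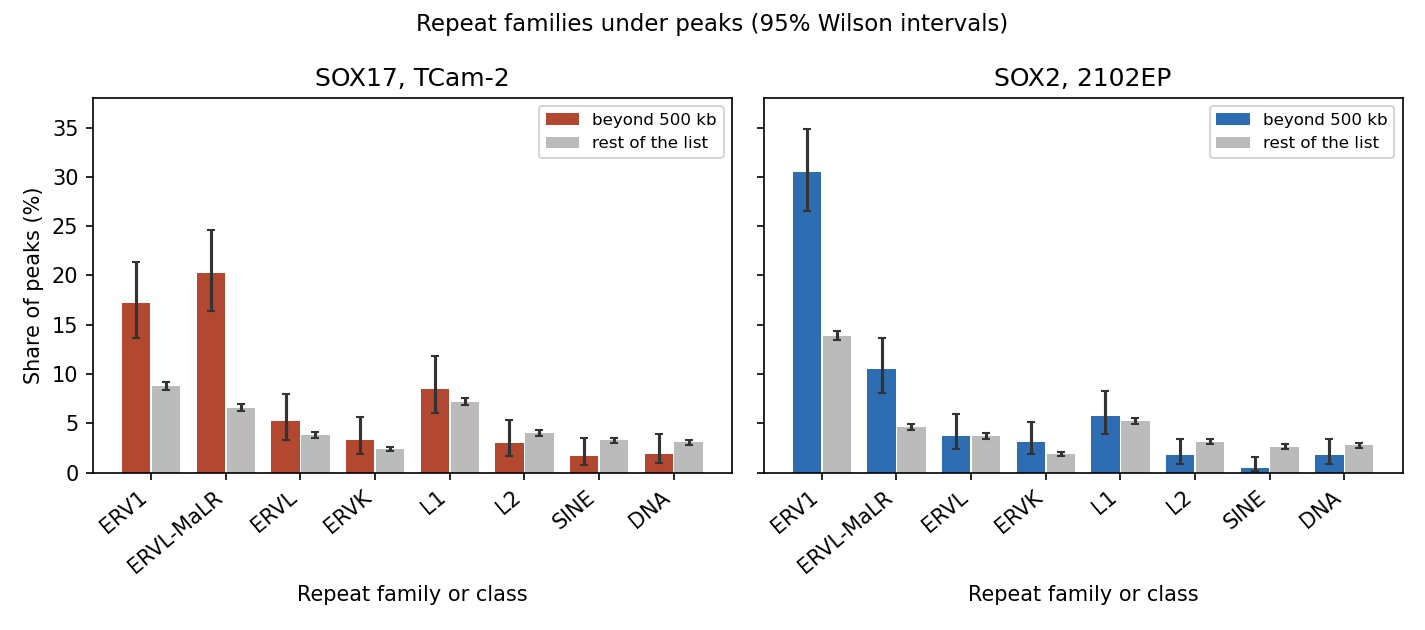
Share of peaks (%) in each repeat family or class, for members beyond 500 kb (coloured) and the rest of the list (grey), SOX17 on the left and SOX2 on the right, with 95% Wilson intervals. ERVL-MaLR was the tallest coloured bar for SOX17 at 20.2%, and ERV1 for SOX2 at 30.5%.

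Within ERVL-MaLR the internal parts of THE1 elements held the most SOX17 members. They held 45 SOX17 members (12.3%) against 3.19% of the rest, and 14 SOX2 members (3.08%) against 1.27%. The difference between members of the lists was 9.22 points (5.62 to 13.2). Of the 45 SOX17 peaks in THE1 interiors 40 (88.9%) had a SOX site and 27 (60%) an OCT site, and 10 (22.2%) were shared with SOX2. Among the other SOX17 peaks in THE1 interiors 95.4% had a SOX site and 70.9% an OCT site, and 26.4% were shared. The 15-base run ATTTTCCCCATTGTC, the one most often found in these members on either strand, contains a SOX site. It was present in 20 of the 45 (44.4%), in 276 of the 546 SOX17 peaks of the family nearer to a TSS (50.5%), and in 40 of 16916 SOX17 peaks outside the family. Interiors of the related MST elements held 22 SOX17 (6.01% against 1.86%) and 26 SOX2 members (5.71% against 1.72%), and 14 of these regions were shared. This was 63.6% of the SOX17 members, beside 56.6% of the other SOX17 peaks in MST interiors. For SOX2 it was 53.8%, beside 60.4%.

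Within ERV1 the most frequent element for SOX2 was LTR7, the promoter of the HERVH retrovirus, whose transcripts mark human pluripotent cells. It held 35 SOX2 members (7.69%) against 2.18% of the other SOX2 peaks, and 7 SOX17 members (1.91%) against 0.607%. The difference between members of the lists was −5.78 points (−8.76 to −2.89). Of the 35 SOX2 peaks in LTR7 only 9 (25.7%) had a SOX site and 0 had an OCT site, and the other SOX2 peaks in LTR7 gave 28.3% and 0.529%. Their commonest 15-base run, AATGTCATCAGTTAA, was present in 26 of 35 members and 267 of 378 others, and contains neither site. Of the SOX17 members in LTR7, 5 of 7 were shared, beside 55.8% of the other SOX17 peaks in LTR7. Of the SOX2 members 5 of 35 (14.3%) were shared, beside 15.3% of the others. MER67 elements held 7 SOX17 members (1.91% against 0.28%) and 19 SOX2 members (4.18% against 1.01%), and all 7 SOX17 members were shared (64.6 to 100%), beside 72.9% of the other SOX17 peaks in MER67. MER67 copies lay under the SOX2 peaks of LRFN5, CPS1-IT1 and LINC02223, which are among the 10 highest described below, and under a further LINC01947 peak that scored 240.0.

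The members were spread over many kinds of element. The 234 SOX17 members in repeats lay in 114 named elements, 84 of which held 1 member each, and the 276 SOX2 members in 118, of which 73 held 1. THE1B-int led for SOX17 with 25 members, followed by MSTA-int with 16 and MER4A1 with 9. LTR7 led for SOX2 with 35, followed by MSTA-int with 19, MER67C with 11 and MER4D with 10.

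SOX sites were present at most of the distant peaks. Within 100 bp of the centre 251 of 366 SOX17 members (68.6%, 63.7 to 73.1%) and 262 of 455 SOX2 members (57.6%, 53.0 to 62.0%) held one, against 67.1% and 60.5% of the rest. The differences from the rest were 1.47 points (−3.51 to 6.06) and −2.97 points (−7.61 to 1.55), and both intervals include 0. Windows of the same width 2000 bp to either side of the members held one in 26.5% for SOX17 and 27.5% for SOX2. The difference between members of the lists was 11 points (4.35 to 17.5), and outside repeats it was 2.58 points (−8.24 to 13.1).

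OCT sites were more frequent at the distant SOX17 peaks. They were found at 80 members (21.9%) and at 11.2% of the rest, a difference of 10.6 points (6.66 to 15.2), and in 4.1% of the flanking windows of members. Of these 80 members 27 lay in THE1 interiors and 13 in MST interiors. In THE1 interiors 60.0% of SOX17 members had an OCT site, against 70.9% of the other SOX17 peaks there. In MST interiors it was 59.1% against 58.5%. Outside repeats the SOX17 shares were 14.4% and 7.6%, a difference of 6.79 points (1.78 to 13.8). For SOX2 they were found at 93 members (20.4%) and 15% of the rest, a difference of 5.47 points (1.98 to 9.45), and in 4.29% of flanking windows. Outside repeats the SOX2 difference was 4.26 points and its interval included 0 (−0.465 to 10.4), as it did among intergenic peaks alone (3.5 points, −0.161 to 7.67). The OCT share also rose with distance within the limit. For SOX17 it went from 5.62% within 1 kb to 15.4% (13.3 to 17.8%) at 250 to 500 kb. For SOX2 it went from 7.86% to 18.6% (16.6 to 20.9%), the latter close to the share of members. The flanks of members were AT-richer than those of the other peaks: their median GC content was 36.6% against 42.5% for SOX17, and 36.3% against 42.0% for SOX2. The peaks themselves had 43.0% against 44.8% for SOX17 and 41.8% against 43.8% for SOX2. The part of base composition in the OCT share was not tested.

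With a mismatch allowed in the OCT part alone, composite sites at the distant peaks had the spacings found in the rest of each list. With 0 bases between the parts there were 11 SOX17 members (3.01%) and 0 SOX2 members, a difference of 3.01 points (1.44 to 5.3). A count of 0 among 455 allows a share of up to 0.837%, the upper Wilson bound. With 1 base between them there were 2 SOX17 members (0.546%) and 9 SOX2 members (1.98%), a difference of −1.43 points (−3.21 to 0.271). None of the flanking windows of members, 732 for SOX17 and 910 for SOX2, held either. In the rest of the lists the compressed site was present at 2.77% of SOX17 and 0.0807% of SOX2 peaks, and the canonical site at 0.362% and 1.65%. Members and rest of the same list differed by 0.24 points for the compressed site in SOX17 (−1.1 to 2.55) and by 0.329 points for the canonical site in SOX2 (−0.627 to 2.08), and both intervals include 0. Of the 11 compressed sites 1 had an OCT part without mismatch, and with such sites alone the difference between members of the lists was 0.273 points (−0.594 to 1.53). Outside repeats the difference was 1.52 points (−0.856 to 5.36). In a setting added after the data were seen, up to 1 mismatch was allowed in each part. The compressed spacing was then found at 37 SOX17 members (10.1% against 8.2% of the rest) and 4 SOX2 members (0.879% against 0.848%). Flanking windows of members held it in 0.273% for SOX17 and 1.1% for SOX2. The canonical spacing was found at 18 SOX17 members (4.92%, 3.13 to 7.64%) against 2.44% of the rest. It was found at 46 SOX2 members (10.1%) against 9.67%. With this setting the canonical spacing was thus more frequent at SOX17 members than in the rest.

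A retroviral sequence supplied several of the compressed sites. Of the 11 at SOX17 members, 4 were the identical CTTTGTATGGTAAT, in copies of HERV17 (LINGO2, ADGRL3-AS1), HERV9NC (LUZP2) and HERV9 (TFAP2A-AS2), at scores of 148.67, 72.33, 71.0 and 26.67. The printed sequence of ADGRL3-AS1 shows it on the minus strand. LINGO2 encodes a leucine-rich repeat protein of the neuronal membrane, and its peak lay at −564903 bp from the TSS. The other compressed sites lay near CDH2, EPHA4, KIF2B, GRIK2, CPS1-IT1, LINC02233 and CDH18. The site of LINC02233, in a MER41B element, had an OCT part without mismatch, and its peak stood at percentile 24.86.

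For SOX2 the highest of the 9 canonical sites lay at −564254 bp from the TSS of DIAPH3-AS1, with a score of 121.27 and percentile 94.87. The region was 247729 bp from the nearest protein-coding TSS of GENCODE 44, that of DIAPH3. This region was also a SOX17 peak, at a score of 41.0 and percentile 72.51, and was 1 of the 2 SOX17 members with the canonical spacing. A pair of LTR8A copies, near LINC00564 and LINC00276, shared the site CTTTGTAAAGCTAAT at scores of 24.93 and 24.63. The canonical sites with no mismatch lay near the pseudogene BRDTP1 and in the desert of CDH2, at percentiles 43.95 and 2.725. CDH2, which encodes N-cadherin, had 2 canonical sites at SOX2 members and 1 compressed site at a SOX17 member, none of them in a shared region.

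Some of the distant regions were occupied in both experiments, at shares close to those of the whole lists. At least 1 bp was shared by 106 of the 366 SOX17 members (29.0%, 24.6 to 33.8%), against 25.2% of the rest and 25.3% of the whole list. For SOX2 it was 106 of 455 (23.3%, 19.6 to 27.4%), against 24.9% of the rest and 24.9% of the whole list. The differences from the rest were 3.76 points for SOX17 (−0.699 to 8.65) and −1.62 points for SOX2 (−5.32 to 2.53), and both intervals include 0. In the higher-scoring part of each list, above its median score, the SOX2 difference was −10.0 points (−13.8 to −4.8). All 106 shared regions were beyond 500 kb in both lists. Of these, 69 (65.1%) lay in repeats and 61 (57.5%) in LTR elements, as annotated in the SOX17 list. A SOX17 member in an LTR element was shared in 35.5% of cases (28.7 to 42.9%), in a LINE in 13.6% (6.4 to 26.7%) and outside repeats in 28% (21.1 to 36.2%). The rest of the SOX17 list gave 30.3%, 17.5% and 25.1%. For SOX2 members the shares were 27.0%, 17.1% and 20.1%, against 26.6%, 22.7% and 24.3% of the rest.

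Shared regions ranked differently in the lists. Their median score percentile was 39.9 for SOX17 and 60.2 for SOX2. Shared peaks in the rest of the lists had medians of 62.9 for SOX17 and 65.1 for SOX2. Above percentile 50 stood 40 of the 106 distant regions in the SOX17 list, 59 in the SOX2 list and 24 in both. Across the 106 regions Spearman's rho between the scores was 0.167, a description of regions that come from the same merged libraries. A single region was in the top 10% of both. It lay 640531 bp downstream of the microRNA gene MIR620 (hg38 chr12:115508064-115508183 for SOX17), outside repeats, at scores of 143.67 for SOX17 (percentile 98.29) and 630.0 for SOX2 (percentile 99.96). Its printed sequence has a SOX site on each strand, a pair of bases apart, and no OCT site.

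**Figure D3:**
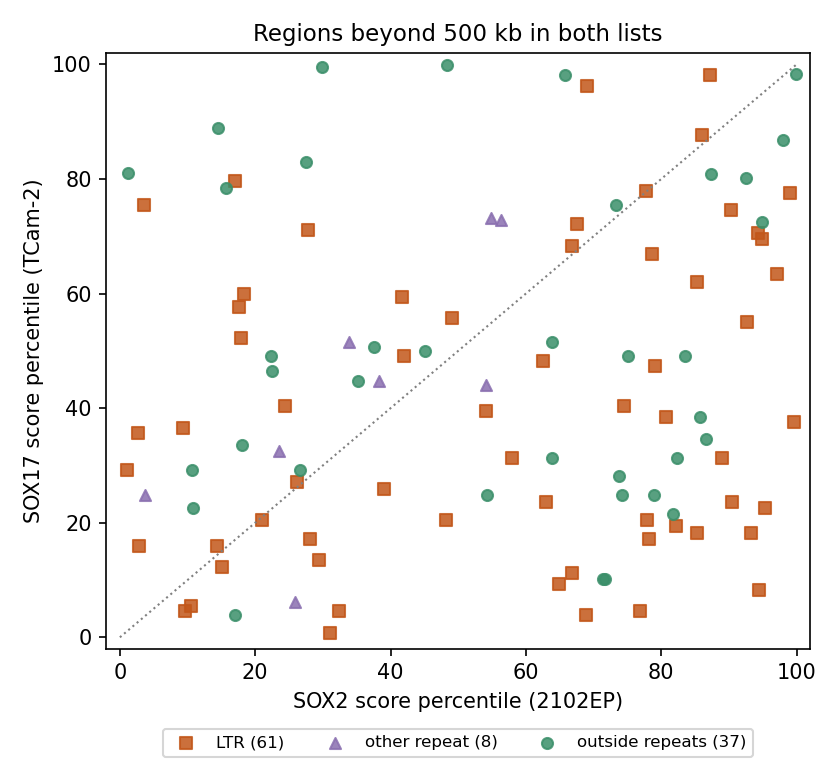
Score percentile in the SOX17 list (vertical) against that in the SOX2 list (horizontal) for the 106 regions beyond 500 kb in both, by the kind of repeat; the dotted line marks equal percentiles. Points fill the plane, and 61 of 106 lie below the line, with a higher SOX2 percentile.

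The distant peaks scored lower than the pooled rest of each list. The median score was 22.3 for SOX17 members (95% interval 20 to 24.3), against 26.7 in the rest. For SOX2 members it was 21.6 (19.7 to 23.6), against 24.1. Such low medians were not particular to the distant peaks. The SOX2 median was also 21.7 within 1 kb of a TSS and 21.9 at 250 to 500 kb. For SOX17 the intervals of the median at these distances, 23.7 to 26.3 and 22.7 to 25.7, overlapped that of members. At the distances between, the medians of both lists were higher. Outside repeats the SOX2 difference in median percentile was −5.4, with an interval that included 0 (−15 to 0.534). The score is the authors' own, its scale is not stated, and it was compared only within a list. The top 10% of the list by score held 23 SOX17 members (6.28% against 10.0% of the rest, difference −3.75 points, −5.86 to −0.749) and 32 SOX2 members (7.03% against 10.1%, −3.04 points, −5.1 to −0.28). The bottom 10% held 46 SOX17 (12.6%) and 69 SOX2 members (15.2%), against 9.67% and 9.87% of the rest. Neighbours were also rarer: another peak of the same list lay within 10 kb of 6.56% of SOX17 members against 11.2% of the rest (difference −4.6 points, −6.76 to −1.55). For SOX2 these shares were 12.1% and 13% (difference −0.951 points, −3.68 to 2.4).

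**Figure D4:**
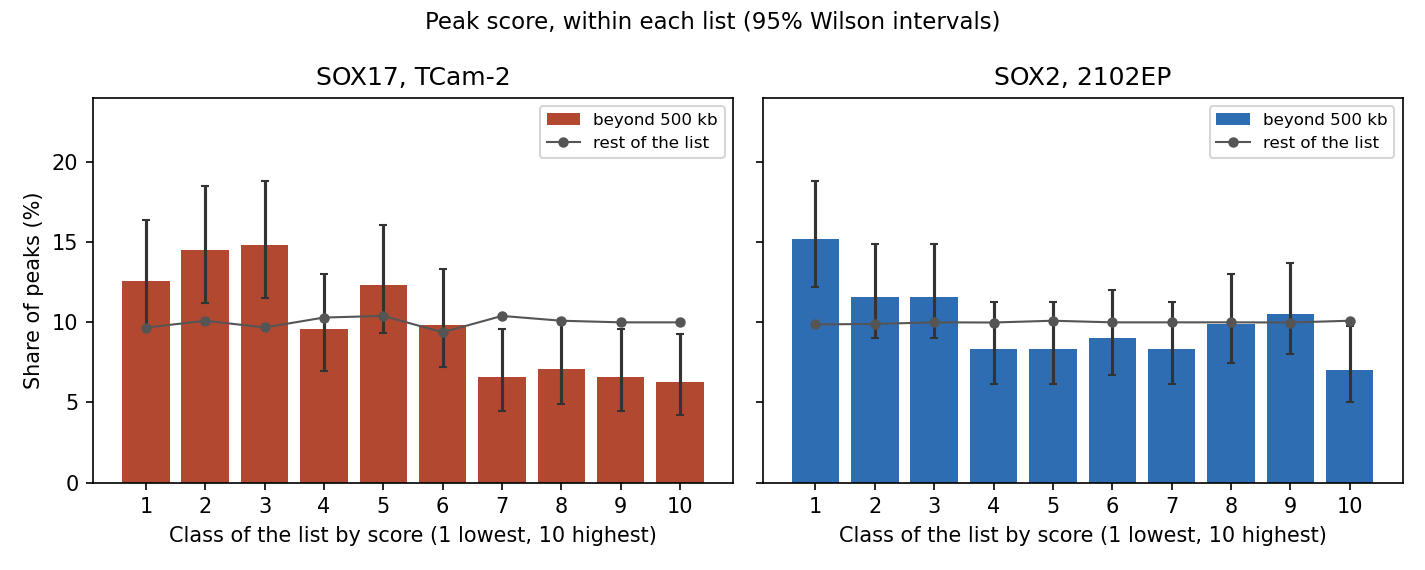
Share of peaks (%) in each of 10 equal classes of their list by score (1 lowest, 10 highest), bars for members beyond 500 kb with 95% Wilson intervals and grey points for the rest of the list. SOX17 bars run lower in classes 7 to 10, at 6.28 to 7.1%, and SOX2 bars are highest in class 1 at 15.2%.

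Some distant peaks were nevertheless among the highest of their list. The highest SOX17 member (hg38 chr18:38427420-38427530) had a score of 273.67 and stood at percentile 99.89. It lay 770340 bp downstream of MIR4318, in the interval between CELF4 and PIK3C3, and held an OCT site but no SOX site as defined. Directly before the OCT site stands TATTGT, which differs from CATTGT at 1 position, so the parts have the compressed spacing when a mismatch is allowed. The overlapping SOX2 peak scored 23.37, at percentile 48.35. The next, upstream of LINC02114 (hg38 chr5:4199526-4199646), scored 216.67 and held a SOX and an OCT site, and its SOX2 counterpart scored 16.93, at percentile 29.86. Its nearest protein-coding TSS in GENCODE 44 is that of IRX1, a homeobox gene, 603754 bp away. The third, of LINGO2, had no SOX2 counterpart. A further HERV17 copy, downstream of the neurexophilin gene NXPH1, scored 141.33 in SOX17 and 70.17 in SOX2 and held neither site. It was 266807 bp from an NXPH1 TSS of GENCODE 44. Others among the 10 highest were assigned to SNORD3P3, LOC100507468, MIR4445, OTOL1, which encodes an inner-ear protein, and DDX18, which encodes an RNA helicase, at scores of 138.33, 119.0, 109.0, 108.33 and 106.67.

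In the SOX2 list the region of MIR620 was followed by one 837746 bp downstream of LINC01947 (hg38 chr5:166088558-166088690), with a score of 334.17 and percentile 99.67. It lay in LTR104_Mam, an old LTR element, and held a SOX and an OCT site. The SOX17 peak there scored 22.0, at percentile 37.57. The third by gene, at 185.9, lay in an intron by the deposited annotation, and its assigned gene was ADGRB3, an adhesion receptor gene. It was 580535 bp downstream of the assigned TSS but 16131 bp from an ADGRB3 TSS of GENCODE 44. Peaks of LINC01192, LINC00648, CDH8, LRFN5, CPS1-IT1, HACE1 and LINC02223 followed at 183.43 to 127.13. CDH8 encodes a cadherin and LRFN5 a synaptic adhesion protein. The peak of LINC00648 was shared, at percentiles 86.87 for SOX17 and 97.96 for SOX2.

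The SOX17 members named 197 nearest genes and the SOX2 members 224, and 143 were named by both, which is 72.6% of the SOX17 and 63.8% of the SOX2 genes. Over the whole lists 9780 SOX17 and 9360 SOX2 nearest genes had 6229 in common, which is 63.7% of the SOX17 and 66.5% of the SOX2 genes. In each list 109 genes had 1 member. The nearest gene was noncoding for 159 SOX17 members (43.4% against 28.3% of the rest) and 199 SOX2 members (43.7% against 29.6%), and protein-coding for 186 (50.8% against 68.5%) and 229 (50.3% against 67.0%). LINC02223, LRFN5 and MAF had most SOX17 members, 6 each, and BRINP3 and DDX18 followed with 5, a number shared with 6 other genes. For SOX2 DIAPH2-AS1, LINC01947 and LINC02223 had 8 each, and CSMD3, LNCSRLR and MBL2 had 6. A gene with a distant peak is only the nearest in the annotation, and regulation of it was not measured.

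Cell adhesion and synapse genes were named often. Of 69 such genes 12 had a SOX17 member, with 27 members (7.38%), against 1.25% of all SOX17 peaks, and 15 had a SOX2 member, with 40 members (8.79%), against 1.49% of all SOX2 peaks. CDH2 had 4 SOX17 and 5 SOX2 members, CSMD3, which encodes a large synaptic membrane protein, 4 and 6, and CDH11, a mesenchymal cadherin gene, 1 and 5. Of 25 axon guidance genes 6 had SOX17 members, 16 in all (4.37% against 0.588%), and 6 had SOX2 members, 10 in all (2.2% against 0.641%). EPHA3 led with 5 SOX17 and 3 SOX2 members. Only a gene beside a stretch of over 500 kb without another deposited TSS can have members. The shares over all peaks have no such limit, here and for the gene lists below. The part of this limit in the differences was not tested. The gene lists were chosen with earlier results of these data known, and no test of them was made.

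Of 70 developmental transcription factors 3 had members in each list. They were assigned 10 SOX17 members (2.73%, against 0.754% of all SOX17 peaks) and 11 SOX2 members (2.42%, against 0.877% of all SOX2 peaks). MAF, a bZIP factor, had 6 SOX17 and 5 SOX2 members, and POU3F4, a POU factor of the inner ear and brain, 3 and 5. TBX3 had 1 SOX17 member. Of 30 pluripotency genes only KLF4 was named, with 1 SOX17 member at percentile 31.33 and 3 SOX2 members, the highest at percentile 78.46. The share of this gene list was 0.273% of SOX17 members against 0.366% of all SOX17 peaks, and 0.659% against 0.45% for SOX2. None of 30 primordial germ cell and seminoma genes was named in either list. Over all distances 48 SOX17 peaks (0.274%) and 36 SOX2 peaks (0.202%) were assigned to them. Counts of 0 among 366 and 455 members stand close to these shares. Of 53 signalling genes NRG3 was named in both lists and ACVR2A, an activin receptor gene, in SOX17 alone, with 1 member each. The share of the signalling genes was 0.546% of SOX17 members against 0.634% of all SOX17 peaks, and 0.22% against 0.601% for SOX2.

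The members fell into 185 intervals between neighbouring protein-coding TSSs of GENCODE 44. SOX17 members lay in 141 of these and SOX2 members in 162, with 118 in common. Only intervals with a member of either list were counted. Whether the number in common exceeds what counts of this size give by themselves was not tested. The median interval was 1.73 Mb long and the longest 5.12 Mb. In 45 intervals there was 1 member, and in 20 there were 10 or more. The 10 fullest intervals held 157 members (19.1%). The fullest, between MAT2B and TENM2 on chromosome 5 (3.46 Mb), held 8 SOX17 and 12 SOX2 members, with 3 regions shared, and contains the highest LINC01947 peaks. TENM2 encodes a teneurin, an adhesion protein of synapses. The next, between H3Y1 and CDH18 on chromosome 5 (1.82 Mb), held 7 SOX17 and 11 SOX2 members. All 18 were in repeats and 15 in LTR elements, and 4 regions were shared.

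Other full intervals differed in their makeup. Between LRFN5 and FSCB on chromosome 14 there were 10 SOX17 and 7 SOX2 members, 3 shared. Between CDH2 and DSC3 on chromosome 18, both of them cadherin family genes, there were 5 SOX17 and 9 SOX2 members and none was shared. Over all members 29.0% of SOX17 and 23.3% of SOX2 peaks were shared, and intervals with so few members allow few shared regions. Between NUDT12 and EFNA5, an ephrin gene, there were 3 SOX17 and 11 SOX2 members. The interval within WWOX on chromosome 16, bounded by a pair of WWOX TSSs, held 8 SOX17 and 6 SOX2 members in 1.05 Mb, 4 shared, and 3 of the 14 were in repeats. The deposited annotation assigned MAF to 6 of these SOX17 members and 5 of the SOX2 members.

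**Figure D5:**
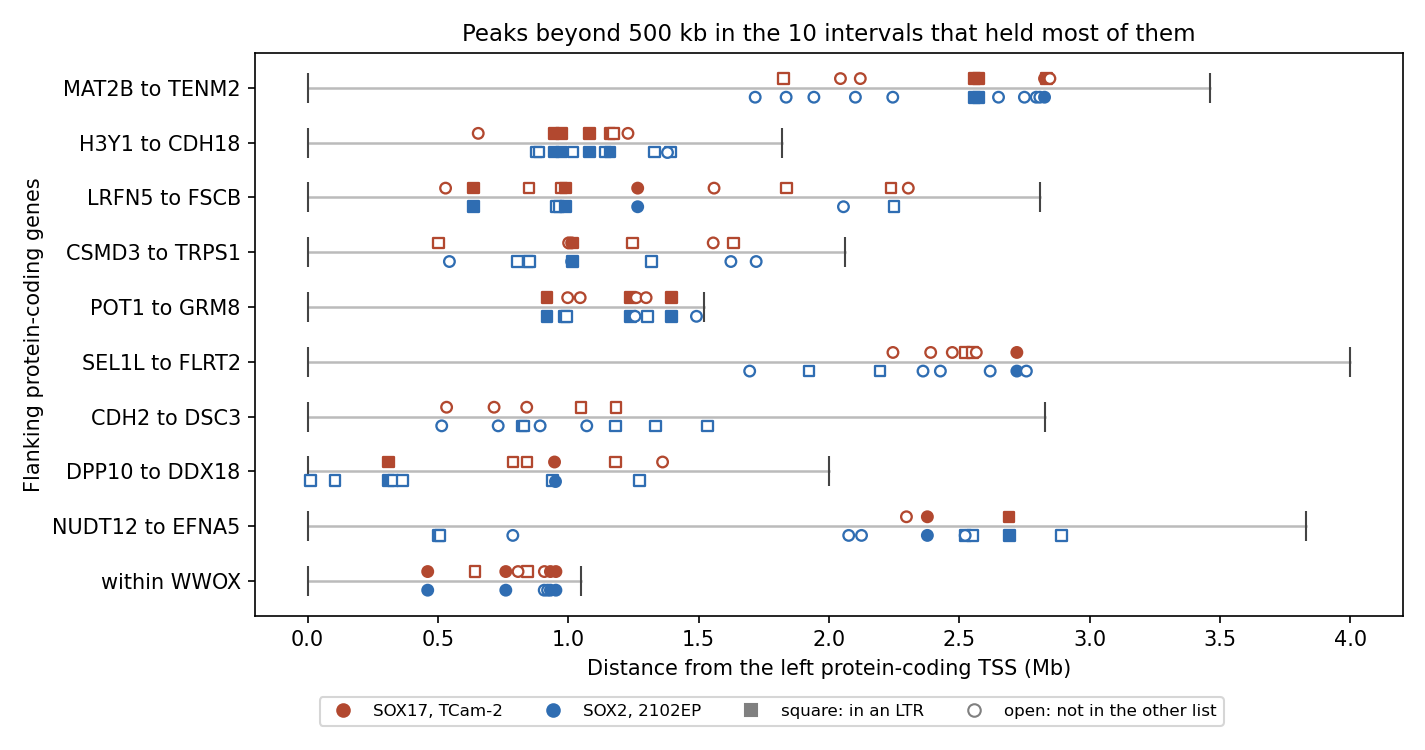
Positions (Mb from the left protein-coding TSS of GENCODE 44) of members in the 10 intervals that held most, SOX17 above and SOX2 below each line; squares lie in LTR elements, circles do not, and open symbols are absent from the other list. Squares prevail between H3Y1 and CDH18, with 15 of 18, circles prevail within WWOX, and between CDH2 and DSC3 all symbols are open.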

How the data were processed

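SOX17 ChIP-seq of TCam-2, SOX2 ChIP-seq of 2102EP and 2% input of each line gave 3 libraries per group, 12 in all, grouped by the sample titles. Per the labels and the series' design text, reads of 75 bp were mapped to hg38 with CLC Genomics Workbench 12. HOMER is named in the submitters' processing notes. The sources used here do not give its version, the settings of peak calling or how reads that map to more than 1 place were handled, which bears on repeats.

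The authors deposited 1 merged peak list per factor, with position, score, nearest gene, distance to the TSS, location and repeat, per the file headers. The scale of the deposited score is not stated. In each list 2 lines had been emptied. All peak names end in 3, a suffix that no source used here explains.

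Members had an absolute deposited distance above 500000 bp. Peaks counted as shared when they overlapped by 1 bp or more. Motifs were searched on both strands of hg38 in windows of 100 bp to either side of the centre, and in equal windows centred 2000 bp away. Composite sites allowed at most 1 mismatch in the OCT part. Shares have 95% Wilson, differences 95% Newcombe and medians 95% order-statistic intervals. Deposited distances agree within 1000 bp with a GENCODE 44 TSS of the same gene for 97.7% of 309 SOX17 and 97.1% of 384 SOX2 members whose gene was found there. The steps were tested on simulated data. Python 3.11.15, pandas 2.3.3, scipy 1.17.1 and pysam 0.24.0 were used.

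The members, the 6 gene lists and the comparisons were chosen with earlier results of these data known. Named were, per list, the 10 highest-scoring members with different nearest genes, the 5 genes with most members, the 5 highest composite sites per spacing, the 3 peaks on either side of the limit and the farthest. Added were the 10 highest shared regions, the 10 fullest intervals and up to 4 members of each gene list. The remaining composite sites, repeat names and 15-base runs, the commonest in a repeat family, were named after their values were seen. A further gene and some peak sequences that the rule would name are not reported here.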

Additional observations from a re-analysis of the deposited data

How the results depend on the processing

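Of 84 recalculated differences whose interval excluded 0, 82 kept their direction and 67 an interval that excluded 0. A distance limit of 250000 bp took in 7.9% of SOX17 and 9.53% of SOX2 peaks. The repeat difference from the rest was then 12.1 points for SOX17 and 12.3 for SOX2, the LTR difference 15.1 and 14.5, and the SOX17 OCT difference 6.16. A limit of 1000000 bp left 0.291% of SOX17 and 0.225% of SOX2 peaks. The SOX17 overlap difference was then −5.69 points, its repeat difference 31.5 and its OCT difference 6.2. The SOX2 repeat difference was 11.1, its LTR difference 14.5, and its score percentile difference turned to 0.132, against −6.05 at 500 kb. SOX17 minus SOX2, ERV1 differed by −20.2 points and ERVL-MaLR by 17.5. In the higher-scoring part of each list the overlap difference was −4.08 points for SOX17 and −10.0 for SOX2. The score percentile difference there was −2.74 for SOX17, turned to 0.184 for SOX2, and ERV1 differed by −21.2 points between the lists. Among intergenic peaks alone members were 3.87% of SOX17 and 4.65% of SOX2 peaks, the repeat difference was 13.8 and 11.5 points and the LTR difference 17.6 and 16.3. By distance to a protein-coding TSS of GENCODE 44 members were 5.22% of SOX17 and 6.02% of SOX2 peaks, and the SOX17 score percentile difference was −5.17, against −11.4 in the deposited annotation. By distance to any GENCODE 44 TSS they were 0.00571% and 0.0%, so no other value was recalculated. Leaving out chromosomes 12 and 20, other overlap rules and a window of 50 bp moved no value beyond its interval. The causes were not tested. No paired analysis was possible because neither list gives values for a single library, and for the same reason no replicate could be left out. Peaks not called in the merged lists, and the spread between cultures, cannot be seen.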

Other observations

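The distant peaks were unevenly spread over chromosomes. Chromosome 14 had the highest share of its SOX17 peaks beyond 500 kb, 25 of 530 (4.72%), and chromosomes 5 and 14 of their SOX2 peaks, 57 of 1118 (5.1%) and 25 of 506 (4.94%). Chromosome 11 held 15 SOX17 and 6 SOX2 members, and chromosome 1, which has the most peaks of the SOX2 list, 12 of 1548 SOX17 (0.775%) and 17 of 1638 SOX2 peaks (1.04%). The interval between RPA4 and PCDH19 on the X chromosome held 2 SOX17 and 10 SOX2 members in 3.41 Mb. None of these regions was shared, beside 29.0% of all SOX17 and 23.3% of all SOX2 members, and 2 SOX17 members allow few shared regions. Over its whole length this interval had 5 SOX17 and 36 SOX2 peaks.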
